A study of Mus musculus with 2 samples.

Results

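MHC class II molecules carry peptides to CD4+ T cells, and the 10 genes described here make the molecules, load them and switch them on. They were H2-Aa, H2-Ab1 and H2-Eb1, which encode the chains that hold the peptide, Cd74, the invariant chain, the peptide exchange genes H2-DMa, H2-DMb1 and H2-DMb2, their inhibitors H2-Oa and H2-Ob, and Ciita, the class II transactivator. The genes were taken by symbol, and all 10 were found among the 32285 genes of each library. The cells were leukocytes pulled with CD45 beads out of CT-2A gliomas, a mouse astrocytoma line, 14 days after it was placed in the brain of Glut5 KO or wildtype mice. Glut5 is the fructose transporter encoded by Slc2a5. Each genotype gave 1 droplet library (10x 5' chemistry, 16000 cells loaded), so differences below come without replicates and without p-values. What belongs to the genotype and what to the library cannot be told apart. The design text speaks of a knockdown, the sample labels of a KO. Neither states the strain, age, sex or number of the mice, the exons deleted or the cell types that carry the deletion.

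The α and β chains pair in the endoplasmic reticulum, where Cd74 fills their groove and takes them to late endosomes. There Cd74 is cut down to a short peptide, which H2-DM (the product of H2-DMa with H2-DMb1 or H2-DMb2) exchanges for peptides of the cell's surroundings, and H2-DO (H2-Oa with H2-Ob) holds H2-DM back. Dendritic cells and B cells make class II at rest, whereas macrophages and microglia make it mostly after interferon-gamma, which acts on Ciita in part through Irf1. Ciita does not bind DNA: it sits on a set of factors (RFX, CREB and NF-Y) that hold the X and Y boxes of class II promoters.

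Below are the 6 genes whose RefSeq promoter window held the Y box letters TGATTGG, shown for where those letters and the X box letters stand; H2-Aa and H2-Oa lack the X box letters. Each line is 80 bases, 5′ to 3′ on the gene's own strand, from RefSeq with build GRCm38.p6. Capitals mark TGATTGG, the X box letters AACNNATGATGC, and TGACGTCA, the letters that CREB is known to bind.
H2-Aa, chr17:34287854-34287933, minus strand: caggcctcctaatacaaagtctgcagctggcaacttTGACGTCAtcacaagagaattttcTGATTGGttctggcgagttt
H2-Eb1, chr17:34305746-34305825, plus strand: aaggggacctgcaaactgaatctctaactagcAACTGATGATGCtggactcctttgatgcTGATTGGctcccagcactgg
H2-DMb1, chr17:34153068-34153147, plus strand: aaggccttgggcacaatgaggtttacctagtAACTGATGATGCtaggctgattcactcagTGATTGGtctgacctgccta
H2-DMb2, chr17:34145097-34145176, plus strand: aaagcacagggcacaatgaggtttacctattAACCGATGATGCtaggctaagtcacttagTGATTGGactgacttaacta
H2-Oa, chr17:34092274-34092353, plus strand: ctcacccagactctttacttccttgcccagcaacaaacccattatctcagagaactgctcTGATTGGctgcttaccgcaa
H2-Ob, chr17:34238786-34238865, plus strand: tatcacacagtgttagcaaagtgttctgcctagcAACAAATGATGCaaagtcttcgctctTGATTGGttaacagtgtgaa
The X box letters were read from these windows: of all patterns of 12 letters with 2 left free, they are the one that most of these 6 windows shared (4 of 6) in the 40 bases before TGATTGG. All motifs were chosen after the windows had been read, and both strands were searched without regard to overlap. TGATTGG was in 6 of the 8 windows of members (H2-DMa has 2, and H2-Ab1, Cd74 and Ciita have none in the table) and in 2568 (7.82%) of all 32851 windows of 300 bases. TGACGTCA was in 1 of the 8 and in 588 (1.79%) of all. AACNNATGATGC was in 4 of the 8 and in 13 (0.0396%) of all. It stood together with TGATTGG on 1 strand in 4 windows of all (0.0122%), those of H2-Eb1, H2-DMb1, H2-DMb2 and H2-Ob. Between the boxes lay 17 bases in H2-DMb1 and H2-DMb2, 16 in H2-Eb1 and 14 in H2-Ob. A match is a run of letters and not a measured binding site. H2-DMb1 and H2-DMb2 are near copies: their longest coding transcripts matched at 94.6% of 1219 aligned bases, so reads may have been shared between them and their separate counts are uncertain.

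Of the members, 8 lie in the class II region of chromosome 17 (GRCm38, GENCODE annotation), from H2-Oa at 34092340-34095234 to H2-Eb1 at 34305867-34316674. Ciita lies at chromosome 16, 10480059-10528418, and Cd74 at chromosome 18, 60803848-60812652. H2-Eb1, Ciita and H2-Oa each overlap 1 gene on the other strand, H2-DMa overlaps 4 genes, 1 of them on its own strand, and Cd74 overlaps a microRNA gene on its own strand. Whether counting used the strand is not given.

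The Glut5 KO library held 96851696 UMIs (unique molecular identifiers, each standing for 1 captured transcript) in 12165 barcodes, and the wildtype library 116105873 UMIs in 11495 barcodes. After filtering, 12112 Glut5 KO cells (median 6523.5 UMIs) and 11473 wildtype cells (median 8682 UMIs) remained. Slc2a5 had 1 UMI in the Glut5 KO library and 384 in the wildtype library. The libraries shared 188 barcode sequences, 1.55% of the Glut5 KO cells and 1.64% of the wildtype cells, and 46 of them were in the same cell type in both. Both libraries held cells with Xist and no Y-linked UMIs (female, 3473 and 2891) and cells with Y-linked UMIs and no Xist (male, 2646 and 3620), so each holds cells of more than 1 mouse although the titles speak of a mouse. Sex and animal cannot be told apart, and cells with neither kind of UMI, 5555 and 4520, are in no sex group. Cell types were gated on marker genes other than the members. Macrophages (4897 and 5200), microglia (1140 and 1342) and monocytes (1044 and 1091) were the largest classes, followed by T cells (460 and 237), NK cells (318 and 272), the second type of conventional dendritic cell (cDC2, 307 and 281) and migratory dendritic cells (223 and 277). Of the markers left out of the gates, 24 of 30 in the Glut5 KO library and 18 of 21 in the wildtype library were highest in their own class, among classes with a level. Among them were Cx3cr1 and Olfml3 in microglia, Mrc1 and Pf4 in macrophages, Lyz2 in monocytes, Il1r2 in cDC2 and Socs2 in migratory dendritic cells. Those not highest in their own class were Itga4 (monocytes) and Trbc1 (T cells) in both libraries. In the Glut5 KO library Apoe (macrophages), Siglech (as a microglia marker), Cd4 (T cells) and Prdm1 (plasma cells) were not highest either. In the wildtype library the macrophage marker Gpnmb was not (45.5 CPM, against 334 CPM in Glut5 KO macrophages). Cells that passed more than 1 gate (11.3% and 11.1%) or none (14.8% and 10.6%) are in no cell type below. Levels are CPM, a gene's share of all UMIs of the class scaled so that 10000 CPM is 1%, and brackets give exact 95% intervals, which cover the counting error of UMIs only, not the spread between cells or mice.

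cDC2 had the highest level of the 3 peptide-holding chains, of Cd74 and of Ciita in both libraries. H2-Ab1, the β chain of the I-A molecule, stood at 11832 CPM [11712 to 11953] in Glut5 KO cDC2 and 11226 CPM [11100 to 11354] in wildtype cDC2. Its partner, the α chain H2-Aa, had 15462 CPM in Glut5 KO cDC2 and 14568 CPM in wildtype cDC2. Cd74 alone made up 43227 CPM in Glut5 KO cDC2 and 39618 CPM in wildtype cDC2. The first type of conventional dendritic cell (cDC1, 66 and 90 cells) came next, with H2-Ab1 at 10264 CPM in the Glut5 KO library and 9458 CPM in the wildtype library. The order below cDC1 differed between the libraries. In the Glut5 KO library, macrophages (7297 CPM) and monocytes (7216 CPM) followed for H2-Ab1 with overlapping intervals, then B cells (4066 CPM), migratory dendritic cells (2874 CPM) and plasmacytoid dendritic cells (2365 CPM). In the wildtype library, monocytes (4289 CPM), macrophages (3188 CPM) and migratory dendritic cells (2372 CPM) followed. For H2-Aa the wildtype monocytes (5390.06 CPM) and migratory dendritic cells (5315 CPM) had overlapping intervals. The wildtype library had too few B cells (13) and plasmacytoid dendritic cells (41) for a level.

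**Figure D1:**
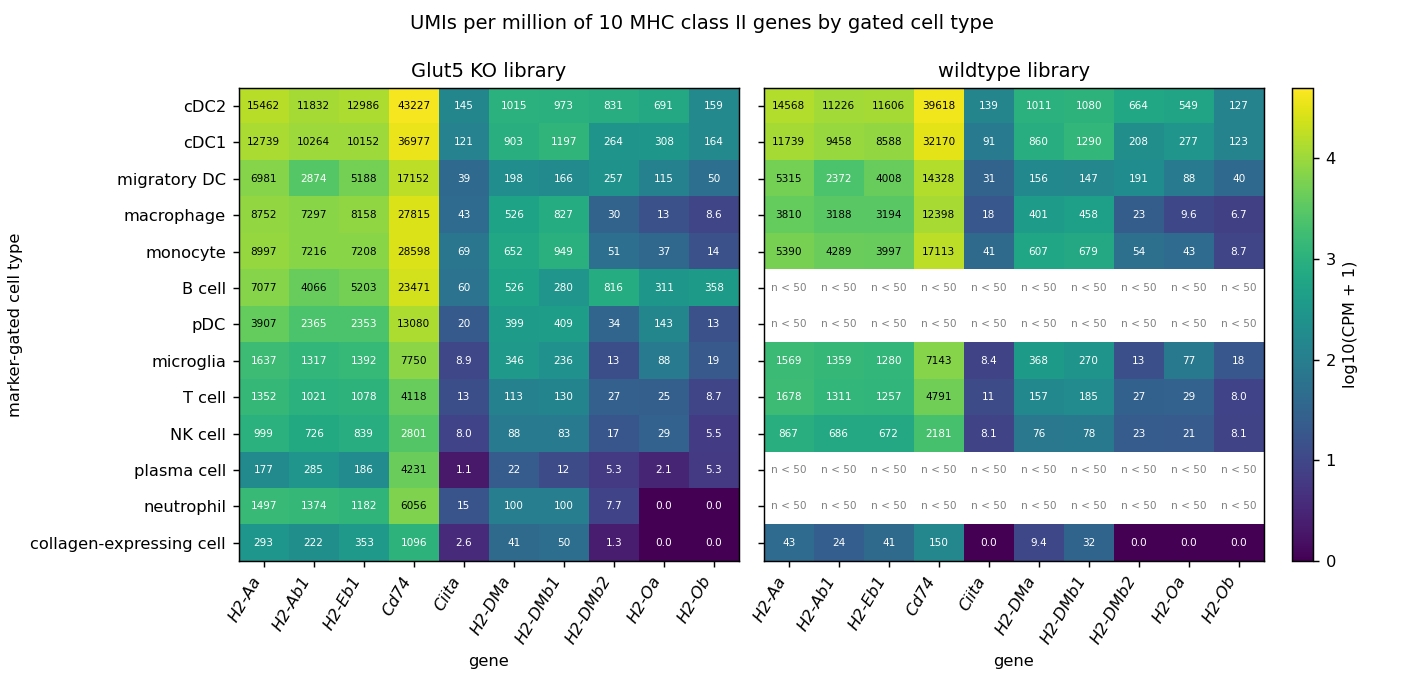
CPM of the 10 genes (columns) in each gated cell type (rows), Glut5 KO in the left panel and wildtype in the right, coloured by log10(CPM + 1) with the CPM written in each cell. cDC2 lead for the chain genes in both panels, and the macrophage row differs between the panels: 7297 CPM of H2-Ab1 in Glut5 KO and 3188 CPM in wildtype macrophages.

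Ciita, the regulator, had 145 CPM [132 to 159] in Glut5 KO cDC2 and 139 CPM [125 to 154] in wildtype cDC2. In cDC1 it had 121 CPM [100 to 145] in the Glut5 KO library, where the interval overlapped that of cDC2. Wildtype cDC1 had 91.0 CPM [74.6 to 110], without overlap. Ciita stood at 42.8 CPM [40.8 to 44.8] in Glut5 KO macrophages and 17.5 CPM [16.5 to 18.6] in wildtype macrophages. In microglia it had 8.95 CPM [7.18 to 11.02] in the Glut5 KO library and 8.35 CPM [6.87 to 10.1] in the wildtype library. Set against the UMIs of H2-Aa, H2-Ab1, H2-Eb1 and Cd74 of the same cells, called chain UMIs below, Ciita gave 1.74 per 1000 in Glut5 KO cDC2 and 1.81 in wildtype cDC2. The same ratio was 0.822 in Glut5 KO macrophages [0.785 to 0.861] and 0.776 in wildtype macrophages [0.729 to 0.825]. In microglia it was 0.740 in the Glut5 KO library and 0.736 in the wildtype library. Per chain UMI, Ciita was thus lower in macrophages and microglia than in cDC2, with intervals that did not overlap, while the intervals of the libraries overlapped in each of these classes.

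T cells, which do not make class II in mice, were set beside these classes. Their H2-Ab1 stood at 1021 CPM in the Glut5 KO library and 1311 CPM in the wildtype library, but it came from few cells. The median T cell had 2.78 chain UMIs per 10000 in the Glut5 KO library and 1.02 in the wildtype library, while the top 10% of T cells had at least 198 and 271. H2-Ab1 sums were lower in NK cells, 726 CPM in the Glut5 KO library and 686 CPM in the wildtype library, and lower again in collagen-expressing cells, 222 CPM and 23.9 CPM. With each cell thinned to 1000 UMIs, 18.7% of 450 Glut5 KO T cells and 16.5% of 237 wildtype T cells kept an H2-Ab1 UMI (30% and 25.3% unthinned, at median depths of 5517.5 and 5069 UMIs). The microglial sums, 1317 CPM in Glut5 KO and 1359 CPM in wildtype microglia, were close to those of T cells. The share of microglia with an H2-Ab1 UMI was higher than in T cells, 41.1% of 1063 Glut5 KO cells and 37.6% of 1315 wildtype cells (64.6% and 59.6% unthinned, at median depths of 7214 and 8709.5 UMIs).

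**Figure D2:**
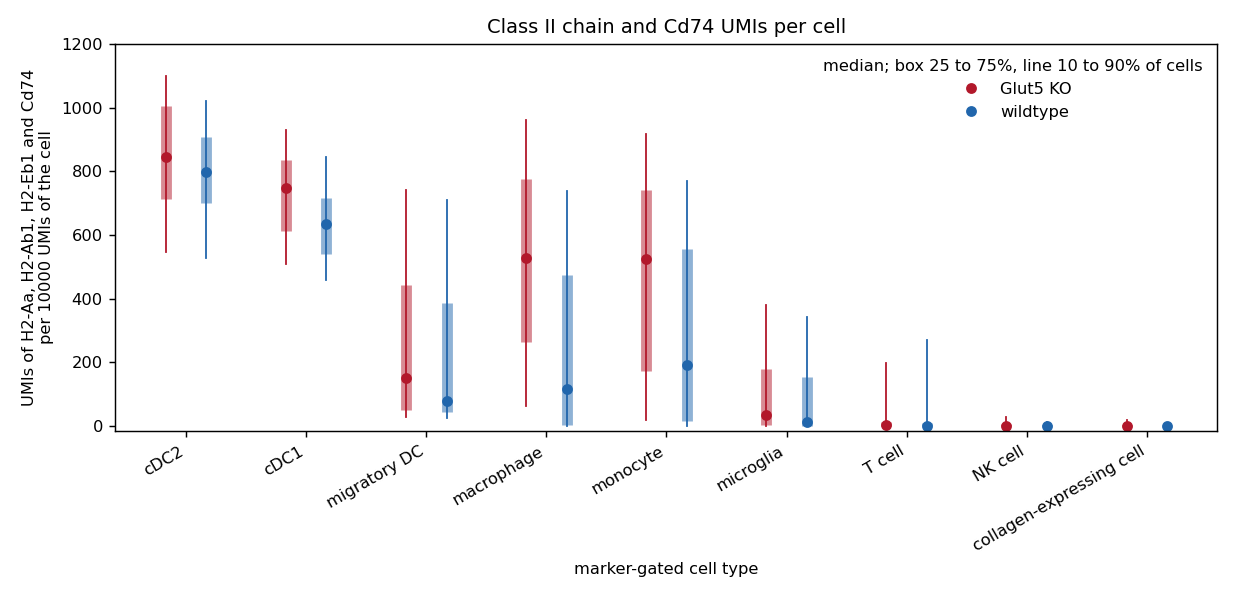
Chain UMIs (H2-Aa, H2-Ab1, H2-Eb1 and Cd74) per 10000 UMIs of each cell, by gated cell type, Glut5 KO left of wildtype, on a linear axis. The dot is the median, the box spans the middle 50% of cells and the line the 10th to 90th percentile. The macrophage boxes part most among the large classes: the median was 528 in Glut5 KO and 117 in wildtype macrophages, where 10% of cells had 0.582 or less.

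The genes did not keep 1 ratio to each other across cell types. H2-DMb2, the second β chain of H2-DM, was the main copy in B cells, at 74.5% of the UMIs of H2-DMb1 and H2-DMb2 in the Glut5 KO library [71.4 to 77.4]. Its share was 60.8% in Glut5 KO and 56.5% in wildtype migratory dendritic cells, and 46.0% in Glut5 KO and 38.1% in wildtype cDC2. In macrophages it was 3.50% in the Glut5 KO library and 4.81% in the wildtype library, and in microglia 5.03% and 4.52%. Phagocytes thus held nearly all H2-DMb UMIs as H2-DMb1, within the uncertainty of counting near copies.

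H2-Oa, the α chain of the H2-DM inhibitor, set microglia apart from macrophages. Microglia had 5.40 H2-Oa UMIs per 100 of H2-Aa in the Glut5 KO library [5.04 to 5.78] and 4.93 in the wildtype library [4.63 to 5.25], and cDC2 had 4.47 and 3.77. Macrophages had 0.153 in the Glut5 KO library [0.141 to 0.166] and 0.251 in the wildtype library [0.231 to 0.273]. In levels, H2-Oa stood at 88.4 CPM in Glut5 KO and 77.4 CPM in wildtype microglia, but at 13.4 CPM in Glut5 KO and 9.57 CPM in wildtype macrophages, whose H2-Aa was higher. T cells had 25.4 CPM in the Glut5 KO library and 29.1 CPM in the wildtype library, above macrophages and below microglia. H2-Ob, the β chain, was less uneven, at 19.4 CPM in Glut5 KO and 17.7 CPM in wildtype microglia and 8.64 CPM in Glut5 KO and 6.71 CPM in wildtype macrophages. In the Glut5 KO library H2-Ob was above H2-Oa in B cells (358 CPM and 311 CPM) and, on 5 and 2 UMIs, in plasma cells.

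H2-DMa, the α chain of H2-DM, was likewise high in microglia for their class II: 21.2 UMIs per 100 of H2-Aa in Glut5 KO and 23.5 in wildtype microglia. Macrophages had 6.02 in the Glut5 KO library and 10.5 in the wildtype library, and migratory dendritic cells had 2.84 and 2.93. In migratory dendritic cells H2-Ab1 was also low against H2-Aa, its partner. They had 0.412 UMIs of H2-Ab1 per UMI of H2-Aa in the Glut5 KO library and 0.446 in the wildtype library. In cDC2, macrophages, monocytes and microglia that ratio lay between 0.765 and 0.866. B cells (0.575) and plasmacytoid dendritic cells (0.605) of the Glut5 KO library lay in between. Plasma cells of the Glut5 KO library (51 cells) kept Cd74 at 4231 CPM with H2-Aa at 177 CPM, 23.9 Cd74 UMIs per UMI of H2-Aa, against 3.32 in B cells. These are ratios of 5' UMI counts and not of protein.

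**Figure D3:**
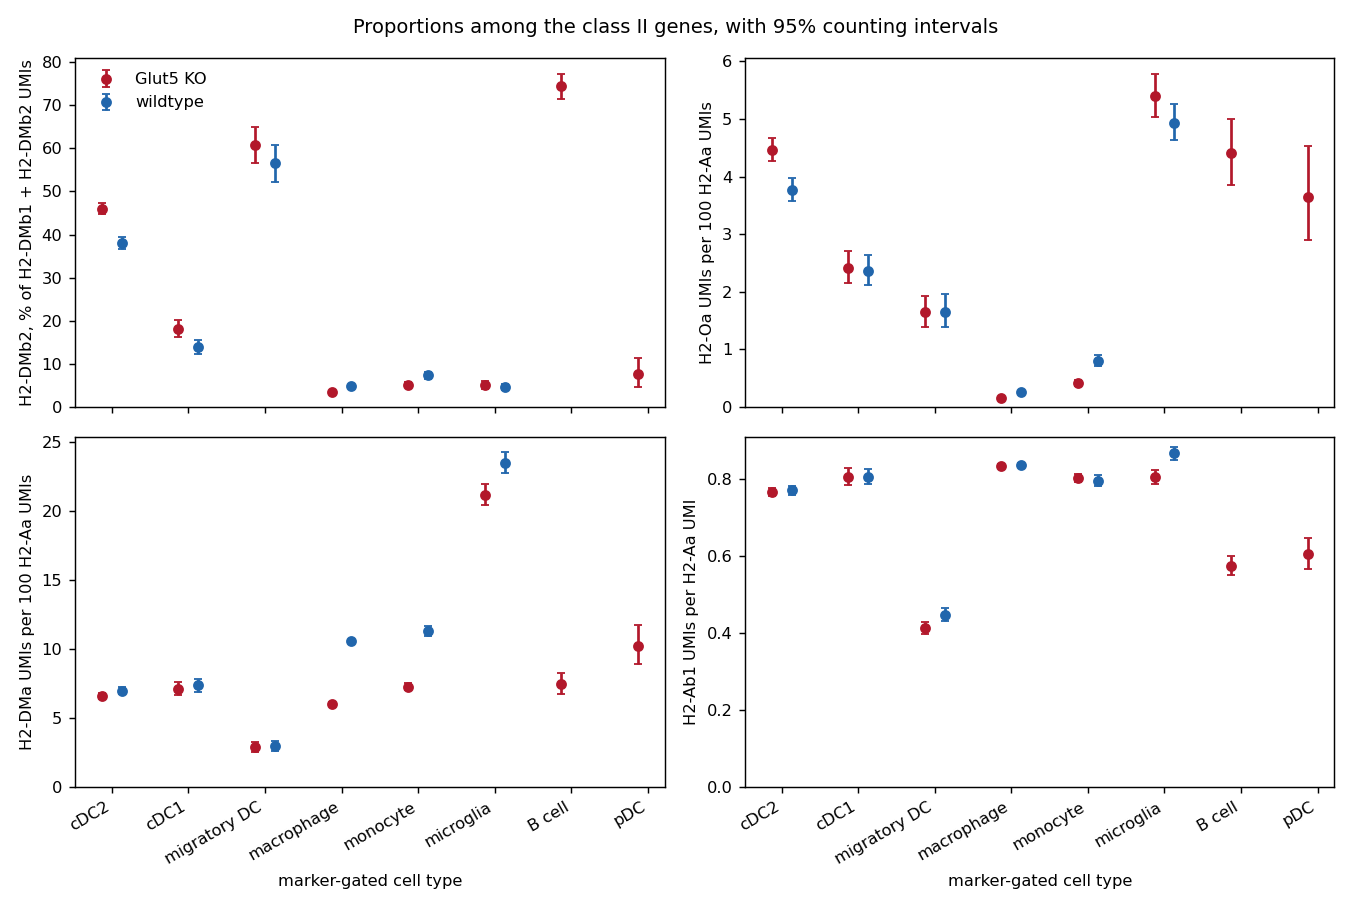
Ratios between members within each gated cell type, with exact 95% counting intervals, Glut5 KO and wildtype side by side: H2-DMb2 as a percentage of H2-DMb1 and H2-DMb2, H2-Oa and H2-DMa per 100 UMIs of H2-Aa, and H2-Ab1 per UMI of H2-Aa. H2-Oa per 100 H2-Aa separates microglia (5.40 and 4.93) from macrophages (0.153 and 0.251).

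Macrophages showed the widest difference between the libraries among the phagocytes and dendritic cells. H2-Eb1, the β chain of the I-E molecule, stood at 8158 CPM in Glut5 KO macrophages, against 3194 CPM in wildtype macrophages (log2 ratio 1.35 [1.34 to 1.36]). H2-Aa was at 8752 CPM in Glut5 KO and 3810 CPM in wildtype macrophages (1.20), H2-Ab1 at 7297 CPM and 3188 CPM (1.19 [1.19 to 1.20]), and Cd74 at 27815 CPM and 12398 CPM (1.17). Ciita was higher in Glut5 KO macrophages too, with a log2 ratio of 1.29 [1.18 to 1.40] that lay among those of the chains. Calling a gene higher or lower from a fold of 1.5, among genes with at least 100 UMIs over both libraries, 6 of the 10 members were higher in Glut5 KO macrophages and 0 lower, where 5.14% of the 11494 genes measured were higher and 4.49% lower. The median member had a log2 ratio of 1.01, against -0.07 over all these genes. H2-DMb1 was the sixth, at 827 CPM in Glut5 KO and 458 CPM in wildtype macrophages (0.85). The others did not reach the fold: H2-DMa had a log2 ratio of 0.39, H2-DMb2 of 0.37, H2-Oa of 0.49 and H2-Ob of 0.36.

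The difference was present in the gated macrophages of each of the 9 clusters compared, but its size depended on the macrophages chosen. Clusters were made without the members. In the 6 clusters whose gated cells were mostly macrophages the H2-Ab1 log2 ratio ran from 0.40 to 1.92. The macrophages that lay in clusters of mostly T cells, microglia and monocytes had 1.27, 1.52 and 0.85. The smallest value was that of cluster 1, led by Ly6i, Hp and Slpi, at 10757 CPM in Glut5 KO and 8128 CPM in wildtype cells. Macrophages that still carried UMIs of the monocyte genes Ly6c2, Plac8 or Chil3 had more class II, and they were 61.4% of Glut5 KO and 38.4% of wildtype macrophages. Among them H2-Ab1 stood at 9221 CPM in Glut5 KO and 5902 CPM in wildtype cells (0.64), and among macrophages without such UMIs at 5075 CPM and 1927 CPM (1.40). Dividing macrophages had less, at 4802 CPM in Glut5 KO and 1730 CPM in wildtype cells, and they were 12.9% of Glut5 KO and 23.1% of wildtype macrophages. Among macrophages that were not dividing the log2 ratio was 1.02. Without macrophages that held any dendritic cell marker UMI, a subset taken after the data had been seen (66.3% of Glut5 KO and 61.8% of wildtype macrophages), the log2 ratio was 1.30. A Ciita UMI was found in 24.9% of Glut5 KO and 14.6% of wildtype macrophages, and these had a median of 712 and 542 chain UMIs per 10000, against 449 and 59.4 in macrophages with none.

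The sex of a cell was the only sign of which mouse it came from, and within wildtype macrophages the sexes differed more in class II than the genotypes did in male cells. H2-Ab1 stood at 6484 CPM [6447 to 6521] in Glut5 KO female macrophages (1523 cells) and 7697 CPM [7646 to 7748] in Glut5 KO male macrophages (1087 cells). It stood at 1063 CPM [1048 to 1078] in wildtype female macrophages (1385 cells) and 4078 CPM [4053 to 4103] in wildtype male macrophages (1883 cells). The wildtype female cells stood below the other sources and the Glut5 KO cells of both sexes stood above the wildtype cells. Ciita followed the same order, with 37.6 CPM in female and 47.9 CPM in male Glut5 KO macrophages, and 5.35 CPM in female and 22.3 CPM in male wildtype macrophages. In female macrophages the log2 ratio between genotypes was 2.61 [2.59 to 2.63] for H2-Ab1 and 2.81 [2.50 to 3.14] for Ciita, and in male macrophages it was 0.92 [0.90 to 0.93] and 1.10 [0.93 to 1.27]. Whether the genotype difference depends on sex was not tested, because each source may be 1 mouse.

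In female macrophages 10 of 10 members were at least 1.5-fold higher in Glut5 KO and 0 lower, where 4.51% of genes were higher and 3.79% lower. In male macrophages 5 of 10 were, namely H2-Aa, H2-Ab1, H2-Eb1, Cd74 and Ciita, and 0 were lower, where 4.64% of genes were higher and 7.2% lower. H2-DMb1 had a log2 ratio of 1.77 in female and 0.53 in male macrophages, and H2-DMa of 0.86 and 0.24. H2-DMb2 had 0.85 in female macrophages and -0.08 in male macrophages. Set within a library, female over male, H2-Ab1 had a log2 ratio of -0.25 [-0.26 to -0.23] in Glut5 KO and -1.94 [-1.96 to -1.92] in wildtype macrophages. Of the members, 0 of 10 were at least 1.5-fold lower in female Glut5 KO macrophages (4.3% of genes were) and 0 higher (6.45% of genes were). In wildtype macrophages 9 of 10 were lower in female cells (3.67% of genes were) and 0 higher (3.35% of genes were). The exception was H2-Ob, at -0.27 [-0.65 to 0.09]. These female over male values, and the list genes by sex below, were added after the data had been seen.

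**Figure D4:**
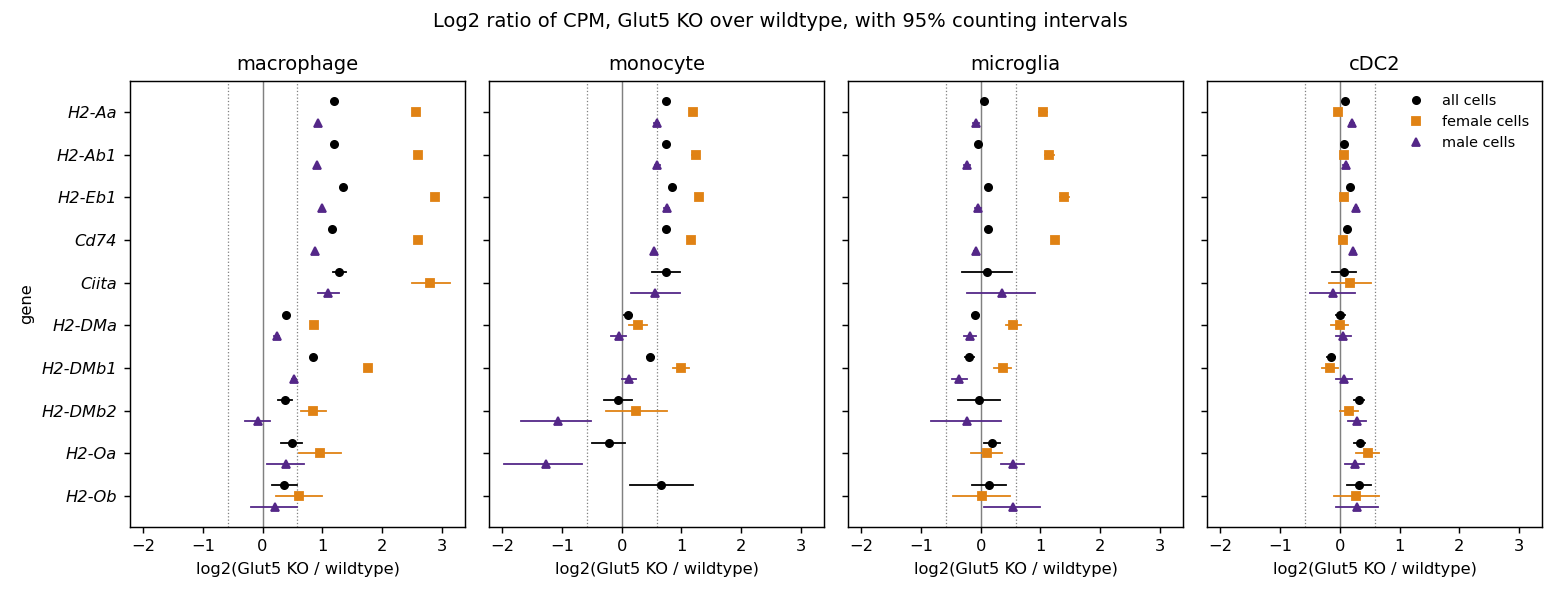
Log2 ratio of Glut5 KO over wildtype for each member (with exact 95% counting intervals), in all cells, female cells and male cells of 4 gated classes; dotted lines mark 1.5-fold. In macrophages the chain genes lie above the upper line in both sexes (H2-Ab1 2.61 in female and 0.92 in male cells), in microglia in female cells only (1.15 and -0.23), and in cDC2 in neither.

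Per cell, the wildtype female macrophages differed in how many had hardly any class II. The median macrophage had 462 chain UMIs per 10000 among female and 618 among male Glut5 KO cells, and 4.53 among female and 269 among male wildtype cells. After thinning to 1000 UMIs, no chain UMI was left in 4.50% of 1510 female [3.51 to 5.67] and 3.48% of 1063 male Glut5 KO macrophages [2.46 to 4.77], and in 50.04% of 1383 female [47.4 to 52.7] and 13.3% of 1883 male wildtype macrophages [11.8 to 14.9]. Within each of the 5 macrophage clusters with at least 20 cells of every source, wildtype female cells were lowest in H2-Ab1. The female over male log2 ratio of H2-Ab1 ran from -2.53 to -0.86 in the wildtype library. In the Glut5 KO library the same ratio ran from -0.41 to 0.06. The H2-Ab1 ratio between genotypes ran from 1.02 to 3.47 in female and from 0.26 to 1.03 in male cells. Median depths were 11319 and 9700 UMIs in female and male Glut5 KO macrophages and 11892 and 12725 in female and male wildtype macrophages. Carriers of monocyte gene UMIs were 53.9% and 59.9% of female and male Glut5 KO macrophages, and 28.7% and 36.7% of female and male wildtype macrophages. Dividing cells were 23.0% and 11.1% of female and male Glut5 KO macrophages, and 26.7% and 27.4% of female and male wildtype macrophages. Beyond the clusters, the part of depth, of monocyte gene carriers and of dividing cells in the result was not tested.

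**Figure D5:**
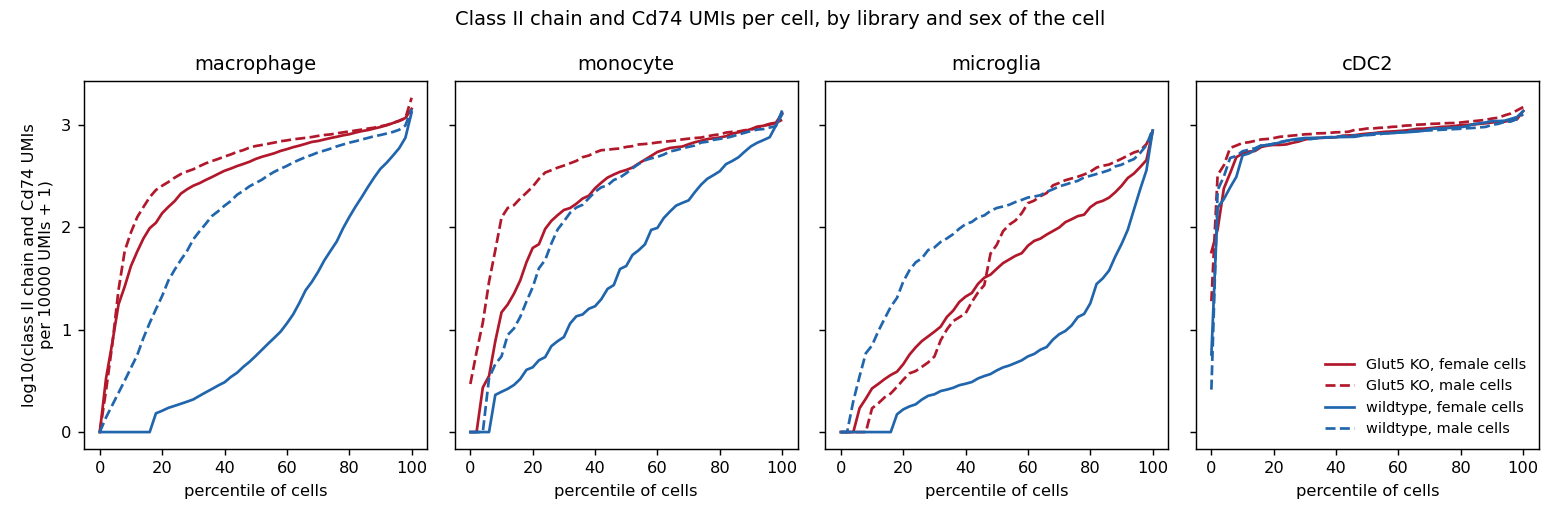
Chain UMIs per 10000 UMIs, log10(value + 1), at each percentile of the cells of 4 gated classes, drawn apart for Glut5 KO female, Glut5 KO male, wildtype female and wildtype male cells. The wildtype female curve runs lowest in macrophages (median 4.53), monocytes (40.8) and microglia (2.998), and lies among the others in cDC2 (799).

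Monocytes, the blood-derived precursors of tumour macrophages, shared 5 of the 6 genes called in macrophages, at a smaller difference. H2-Ab1 stood at 7216 CPM in Glut5 KO and 4289 CPM in wildtype monocytes (log2 ratio 0.75 [0.73 to 0.77]), H2-Eb1 at 7208 CPM and 3997 CPM (0.85), and Ciita at 69.2 CPM and 41.1 CPM (0.75 [0.52 to 0.99]). In all, 6 of 10 members were higher in Glut5 KO monocytes and 0 lower, where 3.05% of genes were higher and 1.85% lower, and the members' median was 0.70 against -0.01 over all genes. The others called were H2-Aa (0.74), Cd74 (0.74) and H2-Ob, on 78 and 52 UMIs (0.66 [0.14 to 1.20]). H2-DMb1 (0.48), H2-DMa (0.10), H2-DMb2 (-0.06) and H2-Oa (-0.22) did not reach the fold. By sex, H2-Ab1 had 6061 CPM in female and 8402 CPM in male Glut5 KO monocytes, and 2568 CPM in female and 5553 CPM in male wildtype monocytes. Wildtype female cells were again lowest. In female monocytes 5 of 7 members with enough UMIs were higher in Glut5 KO (7.79% of genes were) and 0 lower (5.97% of genes were), and in male monocytes 3 of 9 were higher (5.11% of genes) and 2 of 9 lower (3.52% of genes). The lower ones in male cells were H2-DMb2, on 36 Glut5 KO and 90 wildtype UMIs (-1.07), and H2-Oa, on 28 and 81 UMIs (-1.28). Within wildtype monocytes 8 of 9 members were lower in female cells (4.38% of genes were) and 0 higher (5.29% of genes were). Within Glut5 KO monocytes 1 of 8, Ciita, was lower (-0.86, where 6.18% of genes were) and 1, H2-DMb2, higher (0.80, where 9.28% of genes were).

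Microglia, the resident phagocytes of the brain, had 0 of 10 members at 1.5-fold in either direction with all cells taken, where 1.47% of genes were higher and 4.87% lower in Glut5 KO. H2-Ab1 had a log2 ratio of -0.05 [-0.08 to -0.01] and Cd74 of 0.12 [0.10 to 0.13], and the members ran from -0.19 for H2-DMb1 to 0.19 for H2-Oa. The sexes did not share that picture. In female microglia H2-Ab1 stood at 905 CPM in Glut5 KO (412 cells) and 407 CPM in wildtype (461 cells), a log2 ratio of 1.15 [1.08 to 1.23]. In male microglia it stood at 1831 CPM in Glut5 KO (239 cells) and 2140 CPM in wildtype (342 cells), a log2 ratio of -0.23 [-0.27 to -0.18]. H2-Aa, H2-Ab1, H2-Eb1 and Cd74, 4 of the 8 members with enough UMIs, were higher in female Glut5 KO microglia (1.75% of genes were) and 0 lower (4.24% of genes were). In male microglia 0 of 10 were higher (3.62% of genes were) or lower (8.99% of genes were).

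Female microglia were low in both libraries. Female over male, 8 of 8 members were lower in Glut5 KO microglia (2.54% of genes were), with a median of -0.89, and 8 of 9 in wildtype microglia (3.16% of genes were), with a median of -1.61. None was higher in female cells, where 3.65% of genes in Glut5 KO and 3.99% in wildtype microglia were. H2-Ab1 had a female over male log2 ratio of -1.02 in Glut5 KO and -2.39 in wildtype microglia. Cd74 stood at 5964 CPM in female and 10385 CPM in male Glut5 KO microglia, and at 2513 CPM in female and 11019 CPM in male wildtype microglia. H2-Oa showed the same direction at 52.2 CPM in female and 148 CPM in male Glut5 KO microglia, and 48.6 CPM in female and 102 CPM in male wildtype microglia. The median cell had 38.2 and 66.3 chain UMIs per 10000 in female and male Glut5 KO microglia, and 2.998 and 153 in female and male wildtype microglia. After thinning, 24.7% of female [20.6 to 29.2] and 30.3% of male Glut5 KO microglia [24.5 to 36.5] had no chain UMI, with overlapping intervals, and 62.5% of female [57.9 to 66.9] and 10.03% of male wildtype microglia [7.05 to 13.7]. In T cells that share was 60.7% in the Glut5 KO library and 67.9% in the wildtype library, and in NK cells 70.5% and 79.5%. The part of free transcripts in the microglial levels was not tested.

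Dendritic cells differed less. In cDC2 0 of 10 members reached 1.5-fold in either direction (2.62% of genes were higher and 1.42% lower in Glut5 KO), with log2 ratios from -0.15 for H2-DMb1 to 0.33 for H2-Oa. By sex, H2-Ab1 had 11348 CPM in female and 12432 CPM in male Glut5 KO cDC2, and 10801 CPM in female and 11643 CPM in male wildtype cDC2, and 0 of 10 members were called in female (5.99% of genes higher, 3.82% lower) or male cells (3.74% higher, 2.45% lower). Female over male, 0 of 10 members were called in Glut5 KO cDC2 (4.12% of genes higher, 3.01% lower) or in wildtype cDC2 (4.29% higher, 3.97% lower). The low class II of wildtype female cells was thus not seen in cDC2. In cDC1 0 of 10 members were called (1.69% of genes higher and 2.95% lower), with log2 ratios from -0.11 for H2-DMb1 to 0.41 for H2-Ob. In migratory dendritic cells, which carry antigen to lymph nodes, 0 of 10 were called (1.8% of genes higher and 2.94% lower), and all 10 log2 ratios lay between 0.17 and 0.43. With classes from clusters 6 of the 10 were higher, where 2.82% of genes were, and the 10 ratios lay between 0.30 and 0.67. Their class II was uneven: a median of 152 chain UMIs per 10000 in the Glut5 KO library and 78.2 in the wildtype library, with the top 10% of cells at 740.0 or more and 709.6 or more.

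Among the other classes, T cells had 0 of 8 members called (5.43% of genes higher and 2.18% lower in Glut5 KO) and NK cells 0 of 6 (3.6% higher and 1.23% lower). Their H2-Ab1 log2 ratios were -0.36 in T cells and 0.08 in NK cells, and neither kept its sign: with classes from clusters it was 0.29 in T cells, and without the top doublet scores -1.01 in NK cells. Collagen-expressing cells, which had little Ptprc, the gene of CD45 (10.5 CPM in the Glut5 KO library and 6.29 CPM in the wildtype library, against 292 CPM and 301 CPM in macrophages), were the lowest in class II among classes with a level in both libraries. Their H2-Ab1 stood at 222 CPM [190 to 258] in 78 Glut5 KO cells and 23.9 CPM [16.9 to 32.8] in 112 wildtype cells, and 4 of 4 members with enough UMIs were higher in Glut5 KO (5.39% of genes higher and 5.12% lower). The median such cell had no chain UMI in either library, so these sums came from few cells. H2-Ab1 UMIs were in 11 Glut5 KO and 7 wildtype cells. With classes taken from clusters the H2-Ab1 log2 ratio was 0.76, against 3.20 as gated. All collagen-expressing cells with a sex, 56 and 92, were female.

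The other genes of the pathway were taken as lists, and in macrophages their median log2 ratios lay between -0.04 and 0.18, except for the dividing-cell genes at -0.73. Of the interferon-gamma list, 3 of 8 genes were higher in Glut5 KO and 0 lower, among them Irf1, a transcription factor that acts on Ciita, at 220 CPM in Glut5 KO and 112 CPM in wildtype macrophages (log2 ratio 0.98), and Socs1, a brake on the signal (0.91). The receptor chain Ifngr1 (-0.04) and the factor Usf1 (-0.07) were lowest. Of the RFX, NF-Y and CREB genes that hold the X and Y boxes, 0 of 7 were called, from -0.15 for Rfxap and -0.14 for Creb1 to 0.07 for Rfx5 and 0.17 for Nfya. Of the lineage regulators of Ciita, 1 of 4 was higher, Irf4, at 2.43 CPM in Glut5 KO and 1.61 CPM in wildtype macrophages (0.60 [0.18 to 1.02]). Within a sex Irf4 was not called, with -0.08 [-0.89 to 0.72] in female macrophages, on 28 and 29 UMIs. Male macrophages had 0.20 [-0.63 to 0.96], on 22 and 43 UMIs. With all cells taken, Prdm1, a repressor, had 0.17, Irf8 0.07 and Spi1 -0.11.

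Of the endosomal proteases and processing genes 0 of 8 were called with all macrophages taken. Sppl2a, the protease that clears the last piece of Cd74, had a log2 ratio of 0.17 and Ctss, the cathepsin that cuts Cd74, 0.15. The asparagine endopeptidase Lgmn had -0.23 and the cathepsin Ctsz -0.15. By sex, the list's widest gaps were those of the cathepsins Ctsd (-0.66 in female and 0.58 in male macrophages) and Ctsl (-0.53 and 0.52). Of the genes that set how long class II stays at the surface 0 of 3 were called: March1, the ubiquitin ligase that removes it, had 0.25, Cd83, which opposes March1, 0.18 and March8 -0.20. Cd74 is also a receptor for the cytokine Mif, and there 0 of 3 were called, Mif at 0.26, its relative Ddt at 0.12 and the co-receptor Cd44 at 0.04. H2-Eb2, a further class II gene, had 45 UMIs in Glut5 KO and 15 in wildtype macrophages, too few for a call. Of 6 genes of dividing cells 6 were lower in Glut5 KO macrophages, from -0.83 for Ube2c and -0.80 for Cenpf to -0.60 for Mki67 and Top2a.

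Split by sex, Socs1 and Irf1 were lowest in wildtype female macrophages, as the chain genes were, and the dividing-cell genes were not. Socs1 stood at 66.7 CPM in female and 81.6 CPM in male Glut5 KO macrophages, and at 24.8 CPM in female and 50.4 CPM in male wildtype macrophages. This was the order of Ciita in the same cells. Irf1 was low in female cells of both libraries, at 143 CPM in female and 269 CPM in male Glut5 KO macrophages, and 57.1 CPM in female and 126 CPM in male wildtype macrophages. Ube2c had a log2 ratio of Glut5 KO over wildtype of -0.35 in female and -1.48 in male macrophages, and Top2a of -0.08 and -1.16. In microglia, with all cells taken, 0 of the 8 interferon-gamma genes were higher in Glut5 KO and 1, Socs1, lower (-0.77). T cells, the classical source of interferon-gamma along with NK cells, were 2.79% of the female cells [2.27 to 3.40] and 6.31% of the male cells [5.41 to 7.31] of the Glut5 KO library, and 1.11% of the female cells [0.758 to 1.56] and 2.62% of the male cells [2.13 to 3.20] of the wildtype library. NK cells were 2.79% and 2.003% of female and male Glut5 KO cells, and 1.11% and 2.27% of female and male wildtype cells. Wildtype female cells had the smallest share of both, and the part of T and NK cells in the class II levels was not tested.

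Some genes outside the members followed the same pattern over cell types. Over 22 sums (cell types with at least 50 cells, by library), the mean log2(CPM + 1) profile of H2-Aa, H2-Ab1, H2-Eb1 and Cd74 was compared with 6677 genes. These sums share their libraries, depth and free transcripts, so the values are a description. The highest Pearson correlations were those of Irf5, a transcription factor of innate signalling (0.943), the predicted gene Gm6377 (0.942), Phf11a (0.940), Ifi30, the lysosomal thiol reductase that opens disulfide bonds of antigens (0.919), and Csf2rb, the shared β chain of the GM-CSF receptor (0.903). Then came Pmaip1 (0.894), Cd86, a costimulatory ligand for T cells (0.894), Haao, an enzyme of tryptophan breakdown (0.891), Spi1, the myeloid factor PU.1 (0.889), and Sgk3 (0.887). Among the members, Ciita had 0.970, H2-DMa 0.946, H2-DMb1 0.885, H2-DMb2 0.866, H2-Oa 0.781 and H2-Ob 0.771. The exchange genes and their inhibitors thus followed the chains less closely than Ciita did.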

How the data were processed

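Deposited values were raw counts of UMIs per gene and barcode for each library, per the file headers. The submitters' processing notes name Cell Ranger 3.1.0 and the mm10 build, and the matrix header carries a different Cell Ranger version, 7.0.1. Whether intron reads were counted is not given in the sources used here. Barcodes with at least 300 genes and under 10% mitochondrial UMIs were kept. Cell types were gated on at least 3 markers of a class, and cells that passed none of these gates were split into phagocytes. Macrophages had at least 40 C1q UMIs per 10000 and more UMIs of 8 phagocyte genes, such as Ms4a7 and Ccr2, than of 6 microglia genes. Microglia had as much C1q, at least 2 microglia markers and more microglia than phagocyte gene UMIs. Monocytes had under 20 C1q UMIs per 10000, at least 2 monocyte markers and more phagocyte than microglia gene UMIs. Doublets were not removed, except as an alternative (the top 8% of Scrublet scores). UMIs were summed per class and library and divided by the class total (CPM). Log2 ratios had 0.5 added to each count. Intervals are exact at 95%: Poisson for levels, Clopper-Pearson for shares, conditional binomial for ratios. Clusters (Leiden, resolution 1, 20 neighbours, 30 components) left out the members and sex-linked genes. Named outside the members were Slc2a5, for each list the 2 highest and 2 lowest genes in macrophages, and the 10 genes most correlated with the chain profile. H2-Eb2, Irf8, the called list genes and the genes by sex were named after their values were seen. Some list and marker genes are not reported here. The members and lists were chosen with earlier results of these data known. Scripts used Python 3.11.15, scanpy 1.11.5, SciPy 1.17.1 and Biopython 1.88, and the ratio step was tested on simulated counts. Promoters are RefSeq windows, GRCm38.p6; H2-Ab1, Cd74 and Ciita had none in that table.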

Additional observations from a re-analysis of the deposited data

Results flagged for a closer look

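H2-Ab1 is listed here because its log2 ratio (Glut5 KO over wildtype) came out above 0 in 5 classes, cDC2 (0.076), cDC1 (0.12), migratory dendritic cells (0.28), macrophages (1.19) and monocytes (0.75), and below 0 in microglia (-0.046), each with a counting interval that left out 0. H2-DMa likewise was above 0 in migratory dendritic cells (0.35), macrophages (0.39) and monocytes (0.10) and below 0 in microglia (-0.089). H2-DMb1 was above 0 in macrophages (0.85) and monocytes (0.48) and below 0 in cDC2 (-0.15) and microglia (-0.19).

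In microglia 5 members went opposite ways in the sexes with counting intervals that left out 0 in both: H2-Aa with 1.05 in female and -0.082 in male cells, H2-Ab1 with 1.15 and -0.23, Cd74 with 1.25 and -0.086, H2-DMa with 0.55 and -0.18, and H2-DMb1 with 0.37 and -0.36. H2-Eb1 had 1.40 in female and -0.05 in male cells, where the interval took in 0. In migratory dendritic cells Cd74 likewise had 0.84 in female and -0.077 in male cells. These were few: 45 Glut5 KO and 36 wildtype female cells, and 41 Glut5 KO and 94 wildtype male cells. Only the wildtype male cells reached the 50 cells asked of a class elsewhere. None of these differences between classes or sexes was tested, since each source is 1 library's cells and may be 1 mouse.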

How the results depend on the processing

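With 1 library per genotype, no library could be left out. No paired analysis was possible because each genotype has 1 library. In macrophages 6 or 7 members were higher under every alternative run except the sex split, where 10 were higher in female cells (4.51% of genes were) and 5 in male cells (4.64% of genes were), and 0 were lower under any; H2-DMb2 turned negative in male cells. The count of members higher in Glut5 KO moved to 1 in cDC2 with cells thinned to 1000 UMIs (2.82% of genes were higher), 6 in migratory dendritic cells with classes from clusters (2.82%), 3 in male monocytes (5.11%) and 4 in female microglia (1.75%). In monocytes it was also 5 under a stricter gate (3.32%) and in female cells (7.79%), and 4 with thinning (3.16%). In collagen-expressing cells it was 1 with thinning (7.11%) and 6 with a minimum of 20 UMIs (11.2%). The count lower moved to 1 in monocytes under a stricter gate (2.71% of genes were lower) and 2 in male monocytes (3.52%). In male T cells 6 members were lower (3.13% of genes were). In T cells 2 were lower without the top doublet scores (2.62%) and 2 without dividing cells (2.99%). In NK cells 4 were lower without the top doublet scores (1.51%). There 4 were higher with thinning (4.48% of genes were higher), 4 in male cells (5.45%) and 3 under a stricter gate (3.64%). Microglial ratios lie near 0, and beside the sex split signs turned under median-ratio scaling (H2-Ab1, H2-DMb2), a stricter gate (H2-Aa, H2-Eb1, Cd74, Ciita), classes from clusters (H2-Ab1, H2-DMa, H2-DMb2), thinning (H2-Ab1), without the top doublet scores (H2-DMb2) and without dividing cells (H2-Aa). In T cells classes from clusters turned 7 of 8 signs, and in NK cells leaving out the top doublet scores turned 5 of 5.

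The H2-Ab1 level moved beyond its counting interval with the gate. Under a stricter gate, Glut5 KO and wildtype levels were 12077 and 11371 CPM in cDC2, 7409 and 3265 CPM in macrophages, 6188 and 3210.4 CPM in monocytes, and 1126.5 and 1329.5 CPM in microglia. With classes from clusters they were 11624 and 10541 CPM in cDC2, 7498 and 3467 CPM in macrophages, 5832 and 2762 CPM in monocytes, and 1562 and 1312 CPM in microglia. Without the top doublet scores microglia had 1239 and 1285 CPM. The share of cells with an H2-Ab1 UMI grew with depth in Glut5 KO and wildtype cells: to 92.5% and 66.3% of macrophages, 49.2% and 47.5% of microglia and 22.6% and 22.2% of T cells at 2000 UMIs, and to 95.7% and 79.3%, 64.6% and 59.6%, and 30% and 25.3% unthinned. The cause of these moves was not tested. Depth limits calls to members with at least 100 UMIs: 8 of 10 in T cells, 6 in NK cells and 4 in collagen-expressing cells.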
